A study of Oryza sativa with 48 samples.

Results

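The genes of 10 enzymes and enzyme subunits of chlorophyll synthesis were followed in rice leaves under water. They were chosen by name and identifier, as 10 of the 37830 genes in the table of read counts, and all 10 were among the 21453 genes tested. The plants were 2 lines of Oryza sativa, M202 and M202(Sub1), which the study names as rice without and with SUB1A, an ethylene response factor gene known for holding back shoot elongation under water. Pot-grown greenhouse plants were harvested unsubmerged (day 0) or once they had been fully under water for 1, 3 or 6 days, and the fifth leaf (elongating) was taken apart from the lower leaves (non-elongating). The 2 lines, 2 leaf types and 4 days make 16 groups of 3 libraries, described as independent biological replicates, 48 libraries in all. Every submerged group is compared with day 0, since no plants kept in air until days 1, 3 or 6 were analysed here, so time under water and plant age cannot be told apart. SUB1A itself was not analysed here, and the lines are named as labelled.

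Chlorophyll is built on the tetrapyrrole ring that also gives heme. Glutamyl-tRNA reductase (HEMA, OS10G0502400) and the glutamate semialdehyde aminotransferase (GSA, OS08G0532200) make 5-aminolevulinate, the precursor of the ring, and HEMA carries out the step known as rate-limiting. Magnesium chelatase, built of the subunits CHLH (OS03G0323200), CHLI (OS03G0563300) and CHLD (OS03G0811100), commits protoporphyrin to chlorophyll by inserting magnesium. CHLM (OS06G0132400) then methylates the product, and the divinyl reductase DVR (OS03G0351200) reduces a side group. The protochlorophyllide oxidoreductases PORA (OS04G0678700) and PORB (OS10G0496900) carry out the step that in flowering plants needs light, and the chlorophyll synthase CHLG (OS05G0349700) adds the phytyl tail. PORA and PORB are close relatives, and reads that fit both could have been split between them.

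Library totals ran from 4873142 to 10369501 counted reads, with a median of 6854259.5. Levels are given as CPM, a gene's reads scaled by the size of its library, which compare 1 gene between groups but not different genes, since no transcript lengths were used here. Libraries of the same group correlated over genes with r from 0.9596 to 0.9809, and the lowest mean correlation with its own group, 0.9613, was that of replicate 2 of M202 non-elongating leaves on day 6. The tissue label was checked on markers: the green leaf genes RBCS (small subunit of Rubisco), CAB2R (a chlorophyll-binding protein) and RCA (Rubisco activase) had group means of at least 217, 385 and 591 CPM in all 16 groups, while OSH1 of the shoot meristem and RCc3 of roots had at most 6 reads in any library. A gene was called where the adjusted p of edgeR's quasi-likelihood test, Benjamini-Hochberg adjusted over all tested genes of that comparison, was under 0.05. In these whole-leaf samples fewer cells of a type and less RNA per cell cannot be told apart.

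Chlorophyll synthesis genes were higher in elongating than in non-elongating leaves before submergence. On day 0 all 10 were higher in M202(Sub1) and 9 of 10 in M202, where DVR was the one not called (log2 difference 0.38 ± 0.28 SE, adjusted p = 0.342). Over all tested genes 14.3% and 13.9% were called higher in elongating leaves. The median log2 difference of the 10 genes was 1.60 in M202(Sub1) and 1.43 in M202, against -0.05 over all genes in each line. Over the 4 days, 34 of 40 values were called higher in M202 and 32 of 40 in M202(Sub1), against 15.6% and 12.5% of all genes. None was called lower by edgeR or under any alternative, against 16.2% and 12.2% of all genes, and none had an unadjusted p under 0.05 in that direction. Of 17 other tetrapyrrole pathway genes, 50 of 68 values were higher and 4 lower in M202, and 47 higher and 3 lower in M202(Sub1). Over both lines, RBCS was higher in 8 of 8 comparisons, CAB2R in 7 and RCA in 3, with RCA lower in 2.

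CHLH, the large porphyrin-binding subunit of magnesium chelatase, had 931, 1190 and 1170 CPM in non-elongating leaves of M202(Sub1) on day 0 and 4740, 4180 and 4950 CPM in elongating leaves. PORA had 33.3, 51.8 and 33.7 CPM in those non-elongating leaves and 185, 206 and 235 CPM in the elongating ones. The leaf types did not overlap for either gene, both picked as called, and the log2 differences were 2.07 ± 0.13 (adjusted p = 5.65e-17) and 2.40 ± 0.25 (adjusted p = 3.08e-10). In M202 the same differences were 1.46 ± 0.13 for CHLH and 1.66 ± 0.24 for PORA, whose 3 non-elongating libraries spread from 35.1 to 121 CPM. CHLG had the smallest called difference on day 0, 0.46 ± 0.14 in M202 and 0.59 ± 0.14 in M202(Sub1). The M202 call for CHLG was lost without replicate 3 of the elongating leaves (lowest log2 difference without a library 0.38, adjusted p = 0.0688).

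The gap between leaf types was smaller by day 6. At that time 6 of 10 genes were still called higher in elongating leaves in each line, against 11.8% of all genes in M202 and 9.64% in M202(Sub1). The medians of the 10 genes were then 0.67 and 0.70 log2 units. GSA, CHLD, PORB and CHLG were called on all 4 days in both lines, although CHLG in M202 on day 6 had an adjusted p of 0.0509 when the compared groups were fitted alone. HEMA was called in M202 on day 6 (0.69 ± 0.18), a call lost without replicate 3 of the non-elongating leaves (0.45, adjusted p = 0.0664). PORA differed by 0.10 ± 0.26 in M202 on day 6 (95% interval -0.43 to 0.63), where its non-elongating libraries held 26.7, 28.6 and 30.8 CPM and its elongating ones 34.6, 30.2 and 27.1 CPM. Those 2 sets of PORA values overlap.

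The narrowing was tested as the difference between the leaf types' changes from day 0. On day 6 it was called lower in elongating leaves for 8 of 10 genes in M202(Sub1) and 5 of 10 in M202, against 6.84% and 4.73% of all genes. The 5 in M202 were HEMA (-1.04), CHLH (-1.22), CHLI (-1.57), CHLD (-0.80) and PORA (-1.56). The same 5 were among the 8 in M202(Sub1), at -1.17, -1.26, -1.11, -0.97 and -1.81. The other 3 were GSA (-0.71), CHLM (-1.59) and PORB (-0.74), and the GSA call was lost without replicate 1 of the day 0 non-elongating leaves of M202(Sub1) (-0.56, adjusted p = 0.061). CHLG alone was called the other way, in M202, by 1.03 on day 1 and 0.75 on day 3, against 9.15% and 7.34% of all genes. Over all 6 comparisons CHLG had values from 0.19 to 1.03, and the median of the 10 genes in M202 on day 1 was 0.27. Each line's own changes share the day 0 libraries of that line.

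**Figure D1:**
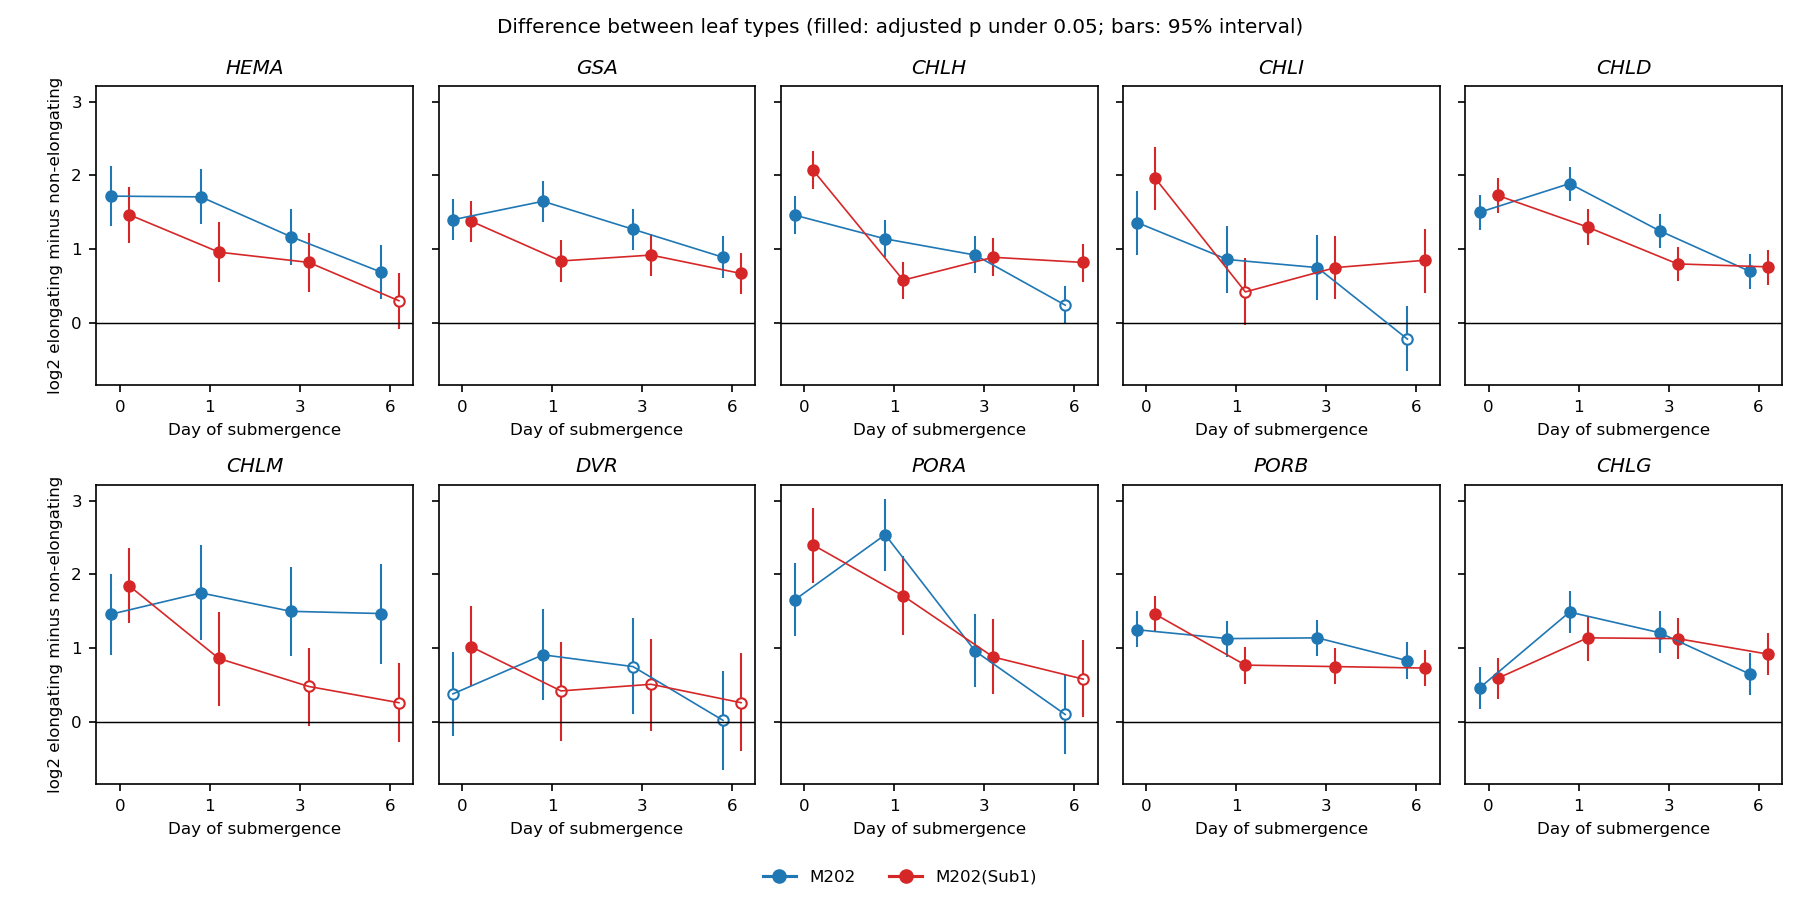
Difference between leaf types for each gene by day, as log2 elongating minus non-elongating (y axis) against day of submergence (x axis, evenly spaced). Points are estimates with 95% intervals, M202 in blue and M202(Sub1) in red, and filled points are called. All points of GSA, CHLD, PORB and CHLG are filled and above 0, and PORA in M202 goes from 2.54 on day 1 to 0.10 on day 6.

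Most of these genes were lower in elongating leaves after submergence than before. Over the 3 submerged days, 20 of 30 gene-by-day values were called lower and 7 higher in M202, and 22 were lower and 2 higher in M202(Sub1). The 7 became 3 without replicate 1 of day 0 and 4 without replicate 3 of day 0, and the 2 became 1 without replicates 2 or 3 of day 0 or any replicate of day 3. Over all tested genes 25.4% and 26.3% of such values were called lower and 27% and 27.5% higher. By day, 5, 6 and 9 of 10 fell in M202, where 26.3%, 23.9% and 25.8% of all genes fell, and 7, 7 and 8 of 10 in M202(Sub1), where 27.4%, 25.4% and 26% fell. On day 6 the median of the 10 was -0.95 in each line against 0.04 and 0.03 over all genes. Since the 3 days of a line share its day 0 libraries, their counts are not independent. The green leaf markers moved the same way on day 6, RBCS by -1.83 and -2.09 log2 units, CAB2R by -2.29 in each line and RCA by -1.74 and -1.85 in M202 and M202(Sub1). Of the dividing-cell markers, PCNA moved by 1.23 and 1.00 and CYCB1 by 2.52 and 1.72 there, and the part of either marker group in these falls was not tested. Over all 12 comparisons with day 0, in both leaf types, RBCS and RCA were lower in each and CAB2R in 8. In the same 12, PCNA was higher in 10 and lower in 0, while CYCB1 was higher in 3 and lower in 4. Between the leaf types' responses, RBCS was called higher in elongating leaves in 6 of 6 comparisons and RCA in 4. CAB2R was lower there in 5 of 6. The 10 genes were lower there in 23 of 60 values and higher in 2, against 6.32% and 7.31% of all genes.

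**Figure D2:**
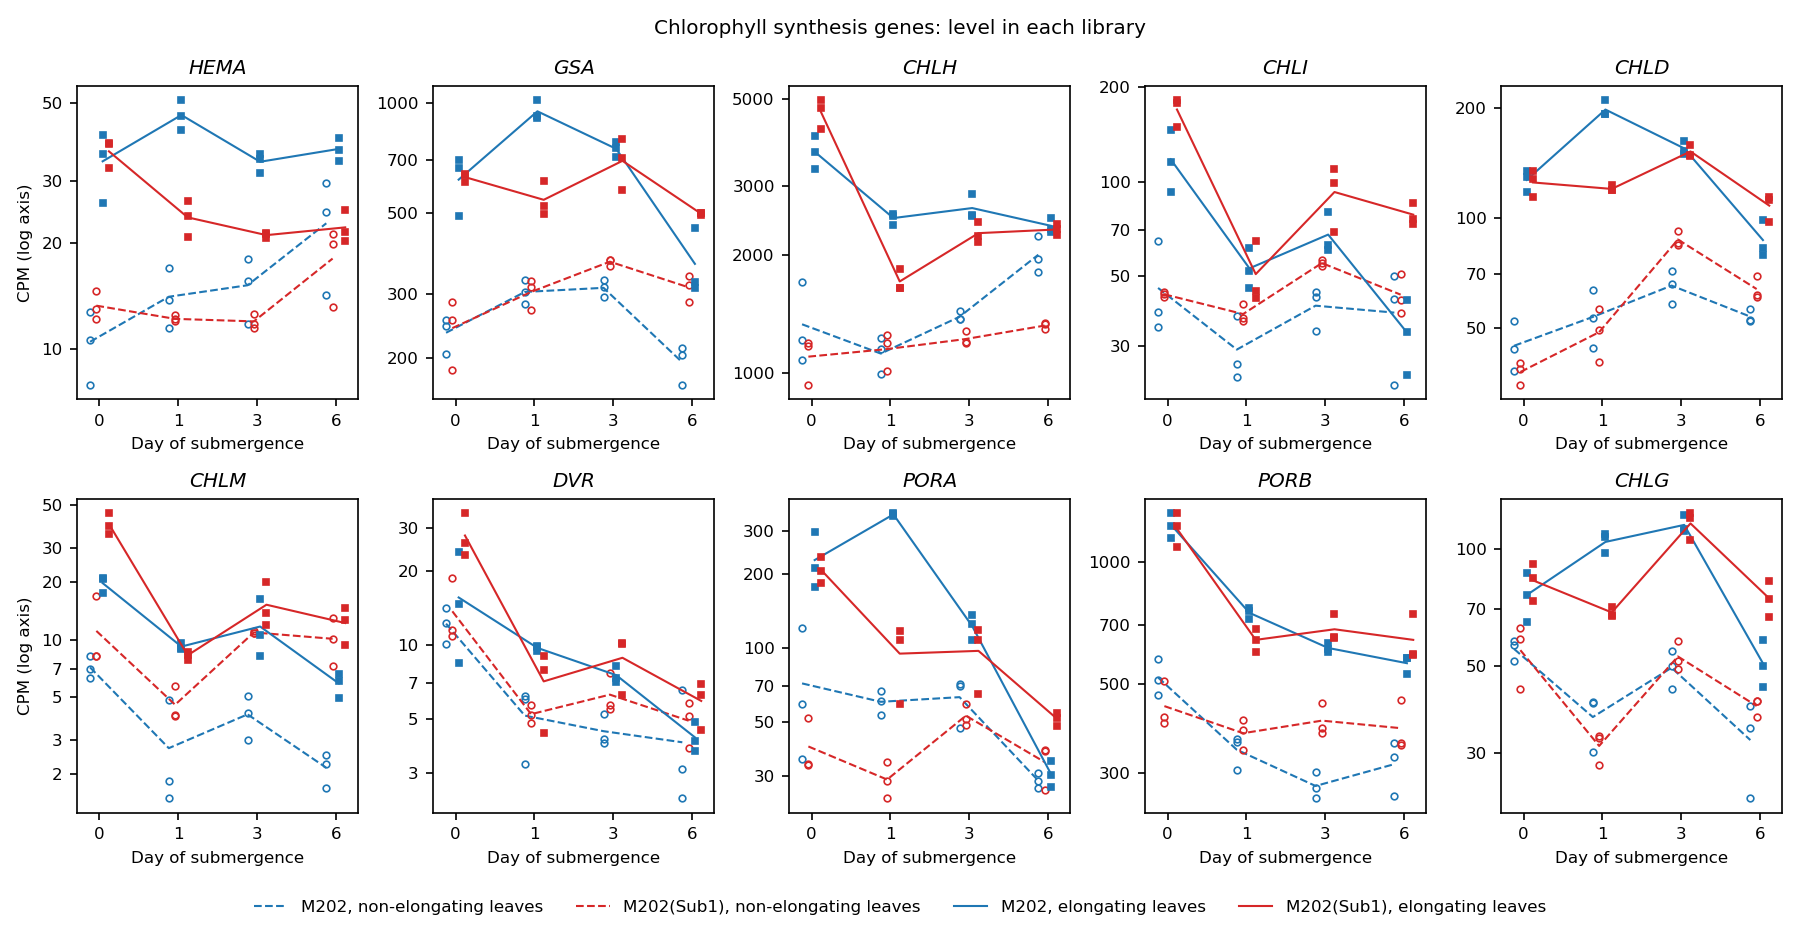
Level of each gene in every library, in CPM on a log axis (y) against day of submergence (x, evenly spaced). Lines join the means of 3 libraries, squares with solid lines are elongating and circles with dashed lines non-elongating leaves, and M202 is blue and M202(Sub1) red. Elongating leaves lie above non-elongating ones for most genes, and PORA in elongating leaves of M202 peaks at 346 to 355 CPM on day 1.

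At the start of the pathway the lines differed in elongating leaves. HEMA held 35.9, 40.6 and 26.0 CPM in M202 on day 0 and 39.9, 34.3 and 36.9 CPM on day 6, which overlap (0.12 ± 0.18). In M202(Sub1) it held 32.7, 38.2 and 38.6 CPM on day 0 and 20.3, 21.5 and 24.9 CPM on day 6, which do not. It fell there on all 3 days, by 0.62, 0.79 and 0.72 log2 units. GSA rose in M202 on day 1, from 491, 697 and 663 to 1020, 923 and 910 CPM (0.62 ± 0.14, adjusted p = 0.00017), and had fallen by day 6 to 310, 323 and 453 CPM (-0.77 ± 0.14). In M202(Sub1) GSA held 636, 606 and 638 CPM on day 0 and 499, 492 and 499 CPM on day 6, a fall of 0.34 log2 units (adjusted p = 0.0381). That last call was lost without any 1 of 5 libraries, replicates 1 and 3 of day 0 and all 3 of day 6 (-0.35 to -0.33, adjusted p up to 0.0763). HEMA also rose in M202 on day 1 (0.44 ± 0.18), a call lost without replicate 1 or 3 of day 0 or of day 1 (lowest 0.25, adjusted p = 0.298).

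The 3 subunits of magnesium chelatase did not move alike. CHLH and CHLI, the latter an ATP-hydrolysing subunit, fell on all 3 days in elongating leaves of both lines. CHLH went in M202(Sub1) from 4740, 4180 and 4950 CPM to 1840, 1650 and 1650 CPM on day 1 (-1.43 ± 0.13, adjusted p = 1.91e-13). CHLI went there from 179, 150 and 182 to 45.0, 42.7 and 64.7 CPM (-1.74 ± 0.21). CHLD, which joins the other subunits in the complex, held 134, 128 and 114 CPM on day 0 and 123, 119 and 119 CPM on day 1 (-0.06 ± 0.11, 95% interval -0.29 to 0.17). In M202 CHLD rose on day 1, from 118, 134 and 129 to 193, 192 and 210 CPM (0.64 ± 0.11, adjusted p = 5.27e-06), and on day 6 it was below day 0, at 79.1, 98.9 and 82.7 CPM (-0.55 ± 0.12). Its small rises on day 3, 0.29 in M202 and 0.28 in M202(Sub1), were each lost without any 1 of 5 of the 6 libraries: replicates 1 and 3 of day 0 in M202, replicates 2 and 3 of day 0 in M202(Sub1), and all 3 of day 3 in each (adjusted p up to 0.156 and 0.163).

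CHLM and DVR, in the middle of the pathway, fell in elongating leaves on every submerged day. CHLM went in M202(Sub1) from 38.9, 35.7 and 45.4 CPM to 8.36, 7.87 and 8.63 CPM on day 1 (-2.27 ± 0.26). In M202 it went from 20.8, 17.4 and 20.9 CPM to 4.99, 6.10 and 6.64 CPM on day 6 (-1.74 ± 0.27). DVR went in M202(Sub1) from 23.3, 26.1 and 34.3 CPM to 4.51, 6.96 and 6.27 CPM on day 6 (-2.24 ± 0.29, adjusted p = 6.56e-09). The groups did not overlap in any of these 3 comparisons, which had been picked as called. DVR in M202 held 8.41, 23.8 and 14.7 CPM on day 0. Its call on day 1 (-0.71) was lost without replicate 2 of day 0 or any replicate of day 1 (smallest change -0.28, adjusted p up to 0.475), and its call on day 3 (-1.07) without replicate 2 of day 0 (-0.64, adjusted p = 0.0969). The CHLM call in M202 on day 3 (-0.75) was lost without replicate 1 of day 3 (lowest change -0.57, adjusted p = 0.104).

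PORA moved over a wider range than PORB. PORA held 213, 297 and 177 CPM in elongating leaves of M202 on day 0, 355, 354 and 346 CPM on day 1, 136, 126 and 108 CPM on day 3 and 34.6, 30.2 and 27.1 CPM on day 6. The day 6 libraries all lie below those of the other days, a change of -2.90 ± 0.25 log2 units from day 0 (adjusted p = 3.42e-13). The day 1 rise (0.62 ± 0.24, adjusted p = 0.0261) was lost without replicates 1 or 3 of day 0 or any replicate of day 1 (0.44 at the least, adjusted p up to 0.174). In M202(Sub1) PORA held 185, 206 and 235 CPM on day 0, 58.9, 108 and 117 CPM on day 1, 108, 65 and 119 CPM on day 3 and 52.0, 54.1 and 47.9 CPM on day 6. It was lower than day 0 on each of these days, with a change of -2.02 ± 0.25 at the last (adjusted p = 2.53e-09). PORB, the other enzyme of this step, fell on each day in both lines within a narrower range, -0.72 to -1.14.

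CHLG, at the end of the pathway, rose before it fell in M202. It held 64.9, 76.2 and 86.8 CPM in elongating leaves on day 0, 122, 111 and 112 CPM on day 3 and 50, 58.2 and 44.1 CPM on day 6. The changes were 0.59 ± 0.14 on day 3 (adjusted p = 0.000379) and -0.58 ± 0.14 on day 6 (adjusted p = 0.000486). Its rise on day 1, 0.45, was lost without replicate 1 of day 0 (0.34, adjusted p = 0.062). In M202(Sub1) CHLG rose on day 3 (0.48 ± 0.14) and differed from day 0 by -0.15 ± 0.14 on day 6.

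Between days 3 and 6 further falls were called in elongating leaves of each line, and this step was not tested between the lines. In M202 7 of 10 genes fell in that step: PORA by 2.00, CHLG by 1.18, GSA by 1.05, CHLI by 1.04, CHLM by 0.98, DVR by 0.85 and CHLD by 0.83 log2 units, against 14.6% of all genes. In M202(Sub1) 4 of 10 fell in the same step, against 7.13% of all genes: PORA (-0.92), CHLG (-0.64), GSA (-0.49) and CHLD (-0.49). In M202 the DVR call was lost without any replicate of day 3 or replicates 1 or 2 of day 6 (-0.75, adjusted p up to 0.128), and the CHLM call without replicate 3 of day 3 (-0.66, adjusted p = 0.107). In M202(Sub1) the calls of GSA (-0.37, adjusted p = 0.12) and PORA (-0.75, adjusted p = 0.0747) were lost without replicate 3 of day 3.

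**Figure D3:**
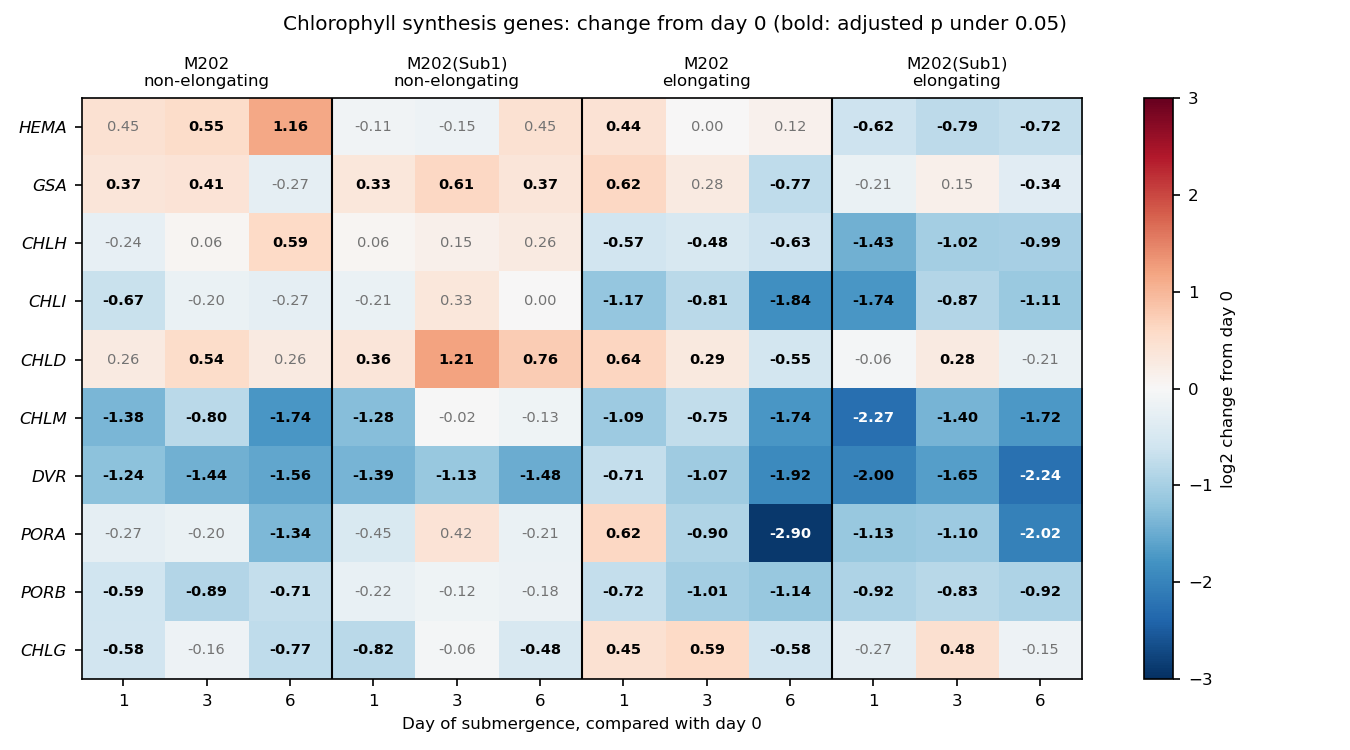
Change of each gene from day 0 in log2 units, as colour and number, for days 1, 3 and 6 (columns) in each line and leaf type. Bold values are called at an adjusted p under 0.05. The M202 elongating block turns from mixed on day 1 to 9 falls on day 6, with PORA at -2.90, and the non-elongating leaves of M202(Sub1) hold the fewest falls.

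In non-elongating leaves fewer values were called lower. Over the 3 days 13 of 30 were lower and 6 higher in M202, and 6 were lower and 6 higher in M202(Sub1), where 3 were higher without replicate 1 of day 0. Over all genes 26.1% and 26.5% were called lower and 26.3% and 26.6% higher, so the M202(Sub1) share of 6 of 30 is no larger than the background. DVR fell in all 6 comparisons (-1.13 to -1.56). CHLM fell in M202 on all 3 days, from 6.28, 7.04 and 8.20 CPM on day 0 to 1.69, 2.24 and 2.51 CPM on day 6 (-1.74 ± 0.34). In M202(Sub1) CHLM fell on day 1 (-1.28 ± 0.31) and held 10.1, 12.9 and 7.27 CPM on day 6, overlapping the 8.17, 16.8 and 8.26 CPM of day 0. PORB fell on all 3 days in M202 (-0.59, -0.89 and -0.71) and was not called in M202(Sub1) (-0.22, -0.12 and -0.18). PORA fell in M202 on day 6, from 121, 58.8 and 35.1 CPM to 26.7, 28.6 and 30.8 CPM (-1.34 ± 0.26), and was not called in M202(Sub1). CHLG fell on days 1 and 6 in M202 (-0.58 and -0.77), and it fell on the same days in M202(Sub1) (-0.82 and -0.48). The M202 call for CHLM on day 3 (-0.80) was lost without replicates 2 or 3 of day 0 or 1 or 3 of day 3 (-0.61, adjusted p up to 0.144). The fall of CHLI in M202 on day 1 (-0.67) was lost without replicate 1 of day 0 or replicate 2 of day 1 (-0.31, adjusted p up to 0.285).

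The rises in non-elongating leaves, 6 of 30 values in each line, were no larger a share than the 26.3% and 26.6% of all genes. HEMA, GSA and CHLD gave 11 of the 12, and CHLH the other, in M202 on day 6 (0.59 ± 0.13). That CHLH call was lost when the compared groups were fitted alone (0.60, adjusted p = 0.0632). HEMA rose in M202 on day 6, from 7.91, 12.8 and 10.6 to 29.7, 24.5 and 14.3 CPM (1.16 ± 0.20, adjusted p = 3.3e-06). GSA rose in 5 of the 6 comparisons, with the largest change in M202(Sub1) on day 3, from 185, 285 and 253 to 372, 372 and 358 CPM (0.61 ± 0.14). CHLD rose in 4 of 6, most in M202(Sub1) on day 3, from 34.8, 39.9 and 38.5 to 84.2, 92.0 and 85.3 CPM (1.21 ± 0.12, adjusted p = 7.74e-12). The groups of these 3 comparisons, which had been picked as called, do not overlap. Some smaller rises rested on single libraries: without replicate 1 of day 0, M202(Sub1) had GSA at 0.16 on day 1 and 0.21 on day 6 and CHLD at 0.30 on day 1 (adjusted p = 0.374, 0.271 and 0.0697). GSA in M202(Sub1) was also lost on day 1 without replicate 3 of day 0 or replicates 2 or 3 of day 1, and on day 6 without replicates 1 or 2 of day 6, and CHLD on day 1 without replicate 2 of day 1 (0.22, adjusted p = 0.178). In M202, GSA was lost on days 1 and 3 without replicate 3 of day 0 (0.27 and 0.32) and on day 1 without replicate 1 of day 1, and HEMA on day 3 (0.55) without replicate 1 of day 0 or replicates 2 or 3 of day 3 (0.39).

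Most line differences were called on days 1 and 6 in elongating leaves, in opposite directions. On day 1, 6 of 10 genes were lower in M202(Sub1) than in M202 and none was higher, against 11.6% and 8.76% of all genes. On day 6, 6 were higher and 1 lower, against 10.3% and 10.1%. The median log2 difference of the 10, M202(Sub1) minus M202, was 0.11 on day 0, -0.57 on day 1, -0.01 on day 3 and 0.48 on day 6, and over all genes it lay between 0 and 0.02. Different libraries stand behind each day.

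PORA had the widest difference on day 1, with 355, 354 and 346 CPM in M202 and 58.9, 108 and 117 CPM in M202(Sub1) (-1.88 ± 0.24, adjusted p = 6.39e-08). HEMA differed by -0.96 ± 0.18, GSA by -0.81 ± 0.14, CHLD by -0.72 ± 0.11, CHLG by -0.60 ± 0.14 and CHLH by -0.53 ± 0.13. The lines did not overlap for any of these 6 genes, which had already been picked as called. How many of all genes had no overlap was not counted, here or in any other comparison. On day 6 CHLI held 24.2, 42.0 and 33.1 CPM in M202 and 76.4, 85.8 and 73.6 CPM in M202(Sub1) (1.25 ± 0.22, adjusted p = 1.93e-05). CHLM differed by 1.04 ± 0.27, PORA by 0.74 ± 0.26, CHLG by 0.55 ± 0.14, GSA by 0.46 ± 0.14 and CHLD by 0.31 ± 0.11. The lines did not overlap for these genes on day 6 except for CHLD, and these too had been picked as called. CHLM had already been called higher in M202(Sub1) on day 0, with means of 40 CPM against 19.7 CPM in M202. Set against day 0, the day 6 response was called higher in M202(Sub1) for 0 of 10 genes, against 2.68% of all genes. Only HEMA was lower in M202(Sub1) on day 6 (-0.74 ± 0.18), as it had been on day 3 (-0.69 ± 0.18), when it was the sole gene called among the 10, against 8.35% of all genes called lower.

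Some of the day 6 calls were close to the threshold. PORA (0.67 at the least) was lost without replicates 2 or 3 of M202 or 1 or 2 of M202(Sub1), CHLD (0.25 at the least) without replicates 1 or 3 of M202 or 1 or 2 of M202(Sub1), and GSA (0.36 at the least) without replicates 1 or 2 of M202, with adjusted p up to 0.116, 0.222 and 0.129. PORB was not called between the lines in elongating leaves on any day, and its 95% intervals on days 1 and 6 were -0.47 to 0.02 and -0.05 to 0.44.

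The change of the line difference from day 1 to day 6 was then tested, a comparison added after the 2 days had been seen. In elongating leaves 6 of 10 genes were called higher and none lower, against 6.81% and 4.89% of all genes. PORA changed by 2.62 ± 0.35 (adjusted p = 9.97e-07), CHLI by 1.31 ± 0.31, GSA by 1.27 ± 0.20, CHLM by 1.20 ± 0.39, CHLG by 1.16 ± 0.20 and CHLD by 1.04 ± 0.16. The CHLM call was lost without 10 of its 12 libraries in turn, all but replicate 3 of M202 and replicate 1 of M202(Sub1) on day 6 (1.03 to 1.23, adjusted p up to 0.0975). CHLH changed by 0.51 (adjusted p = 0.0534), and was called with DESeq2 (adjusted p = 0.0118). HEMA, lower in M202(Sub1) on both days, changed by 0.22 ± 0.25. Green leaf markers moved with these genes: on day 1 RBCS, CAB2R and RCA were lower in M202(Sub1) by -0.75, -0.71 and -0.64, on day 6 the differences were -0.05, 0.41 and 0.65, and the change between the days was called for all 3 (0.70, 1.12 and 1.28). Their part in the result was not tested.

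**Figure D4:**
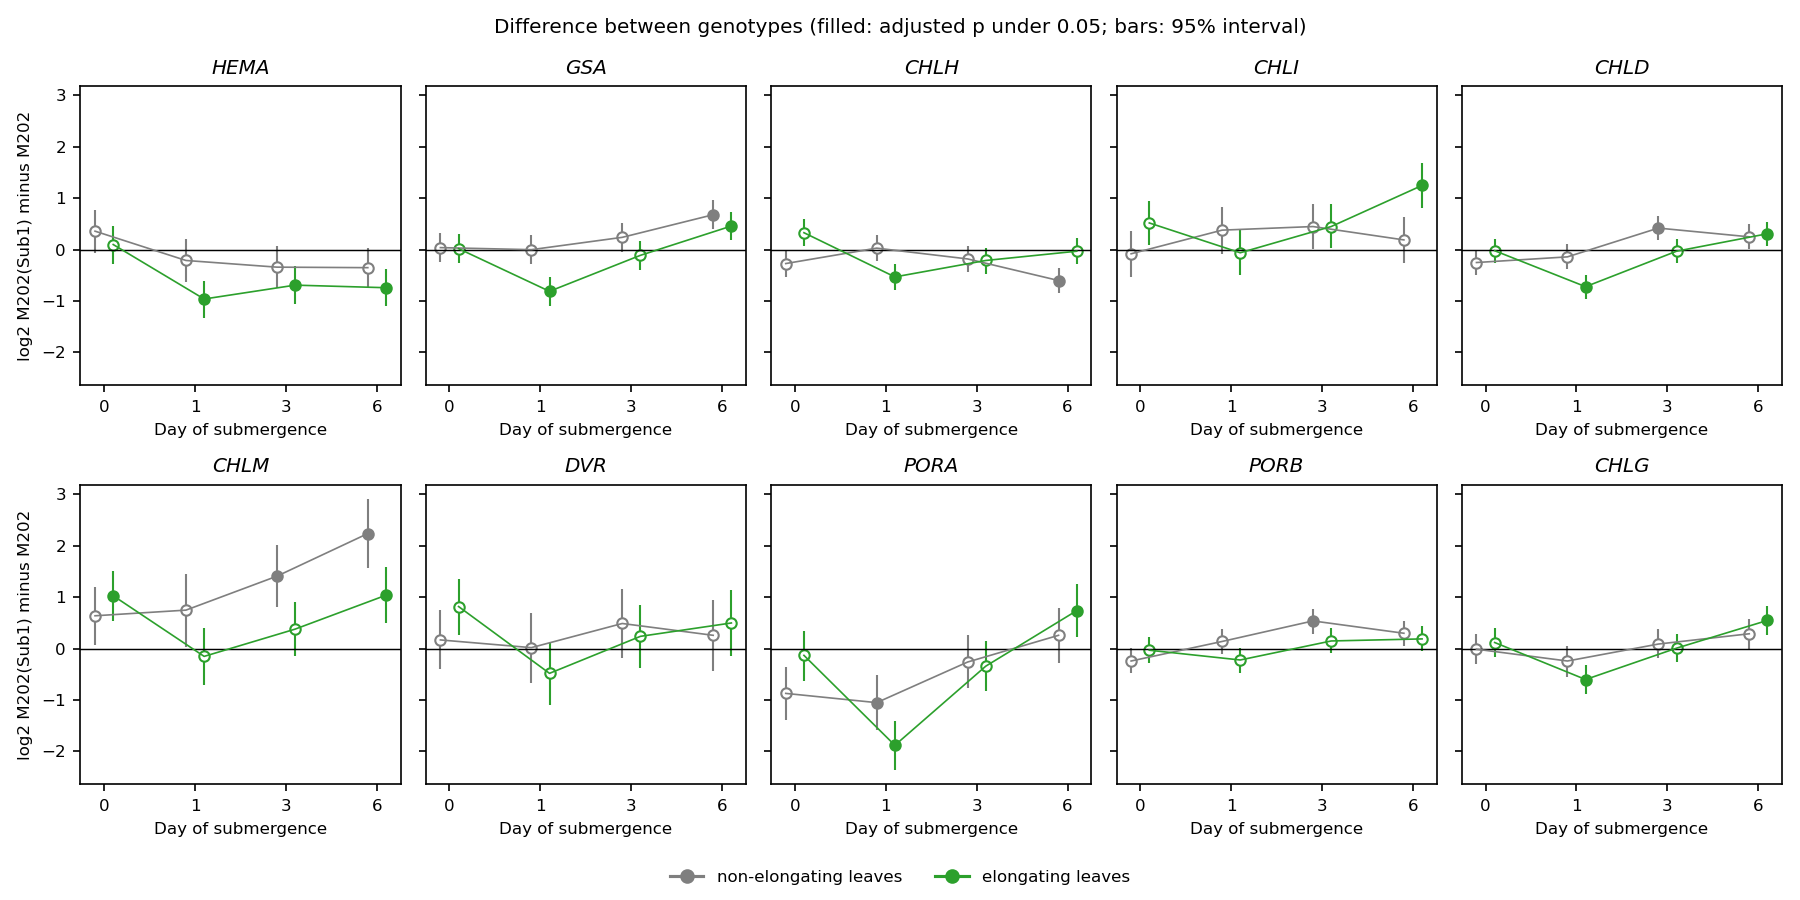
Difference between the lines for each gene by day, as log2 M202(Sub1) minus M202 (y axis) against day of submergence (x axis, evenly spaced). Points are estimates with 95% intervals, elongating leaves in green and non-elongating leaves in grey, and filled points are called. In elongating leaves PORA goes from -1.88 on day 1 to 0.74 on day 6, and HEMA stays below 0 on days 1, 3 and 6.

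Few of the 10 genes were called between the lines before submergence. In elongating leaves CHLM alone was called on day 0, with 20.8, 17.4 and 20.9 CPM in M202 and 38.9, 35.7 and 45.4 CPM in M202(Sub1) (1.03 ± 0.24, adjusted p = 0.00545), against 3.16% of all genes called higher. Without the filter on low counts CHLI and DVR were called there too (0.53 and 0.82, adjusted p = 0.0466 and 0.0374). In non-elongating leaves none of the 10 was called by edgeR or DESeq2, against 2.74% of all genes, although PORA (-0.87 ± 0.26, adjusted p = 0.0517) had an unadjusted p under 0.05, as did CHLH (-0.27) and CHLM (0.64). Set against its own day 0, the day 1 response of elongating leaves was lower in M202(Sub1) for 8 of 10 genes, against 7.13% of all genes, and was called for neither CHLI (-0.57 ± 0.30) nor PORB (-0.19 ± 0.17). Of the 8, DVR lost its call without replicates 1 or 3 of day 0 or 2 or 3 of day 1 in M202, or replicate 3 of day 0 or 2 of day 1 in M202(Sub1) (adjusted p up to 0.125). CHLM lost its call without replicate 2 of either day in M202 or those same libraries of M202(Sub1) (adjusted p up to 0.0743). On day 3 edgeR called none, against 5.63% of all genes, while HEMA (-0.79) and CHLH (-0.55) had an unadjusted p under 0.05 and both were called with DESeq2 (adjusted p = 0.0417 and 0.0142). On day 6 it called HEMA alone (-0.84), against 3.71% of all genes called lower.

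In non-elongating leaves CHLM had the widest difference between the lines, on day 6. PORA was lower in M202(Sub1) on day 1 (-1.05 ± 0.27, adjusted p = 0.00394), the only call of that day, against 9.09% of all genes called lower. CHLM was higher in M202(Sub1) by 1.41 ± 0.30 on day 3 and by 2.24 ± 0.33 on day 6 (adjusted p = 6.67e-07), when its libraries held 1.69, 2.24 and 2.51 CPM in M202 and 10.1, 12.9 and 7.27 CPM in M202(Sub1). On day 3 CHLD (0.42) and PORB (0.54) were higher too, against 5.94% of all genes called higher, and the CHLD call was lost without replicate 1 of M202 or replicate 2 of M202(Sub1) (0.34, adjusted p up to 0.0988). On day 6 GSA was higher (0.68 ± 0.14) and CHLH lower (-0.60 ± 0.13) in M202(Sub1), against 7.17% of all genes higher and 8.13% lower. CHLH held 2230, 1810 and 1950 CPM in M202 and 1340, 1290 and 1330 CPM in M202(Sub1), with no overlap. Its call was lost when the compared groups were fitted alone (-0.61, adjusted p = 0.0792).

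Other genes of the tetrapyrrole pathway were counted from a fixed list of 18, of which 17 passed the filter on low counts. In elongating leaves 20 of 51 values were called higher and 17 lower in M202, and 17 higher and 19 lower in M202(Sub1), against 27% and 25.4% of all genes in M202 and 27.5% and 26.3% in M202(Sub1). In non-elongating leaves 22 were higher and 9 lower in M202, against 26.3% and 26.1% of all genes. In M202(Sub1) 26 were higher and 10 lower, against 26.6% and 26.5%. The lower calls in non-elongating leaves are a smaller share than over all genes in both lines. HEMF (coproporphyrinogen oxidase) and PPOX2 (a protoporphyrinogen oxidase), both in the steps shared by heme and chlorophyll, rose in all 12 comparisons with day 0, by 1.23 to 2.65 and by 0.88 to 2.23 log2 units. FLU1, named for a repressor of 5-aminolevulinate synthesis known from Arabidopsis, also rose in all 12 (0.51 to 2.00). CHLP, the geranylgeranyl reductase that makes the phytyl tail, fell in 11 of 12, down to -2.73 in elongating leaves of M202 on day 6, and was at -0.01 there on day 1. HO1_SE5, a heme oxygenase of the phytochrome chromophore branch, fell in 10 of 12, with values from -0.13 to -1.46 over the 12. HO2, another heme oxygenase, rose in 10 of 12 and fell in none (0.22 to 1.05). GluRS, the glutamyl-tRNA synthetase that supplies HEMA, rose in 10 of 12 and fell in 1, in M202 elongating leaves on day 6 (-0.50 to 1.30 over the 12). How many of all genes moved alike in 10 or more of the 12, which share day 0 libraries, was not counted.

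Between the lines, CHLP followed the same order as PORA in elongating leaves, at -0.84 on day 1 and 1.28 on day 6. Of the 17 genes, 9 were lower and none higher in M202(Sub1) on day 1, against 11.6% and 8.76% of all genes, and 6 were higher and 1 lower on day 6, against 10.3% and 10.1%. Those with the smallest adjusted p on day 1 were HO2 (-0.75), CAO1, the chlorophyllide a oxygenase (-0.62), HEMB (-0.58) and GluRS (-0.57), although CHLP differed by more than each of these and PPOX1 (-0.64) by more than the last 3. On day 6 they were CHLP, GluRS (0.63), GUN4, an activator of magnesium chelatase (0.84), and HEME2 (0.39), with HO2 the one that was lower (-0.53). GLK1 and GLK2 are named for Golden2-like factors, known to activate chlorophyll and antenna genes. GLK1 rose in all 12 comparisons with day 0 (0.55 to 1.57), while GLK2 fell in 7 and rose in 1 (-0.90 to 0.32). On days 1 and 6 in elongating leaves GLK1 was not called between the lines (-0.27 and -0.18). Over all 8 line comparisons, in both leaf types, GLK1 was called in 0. GLK2 was called lower in M202(Sub1) in 2 of the 8 (-0.48 to 0.09 over the 8).

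**Figure D5:**
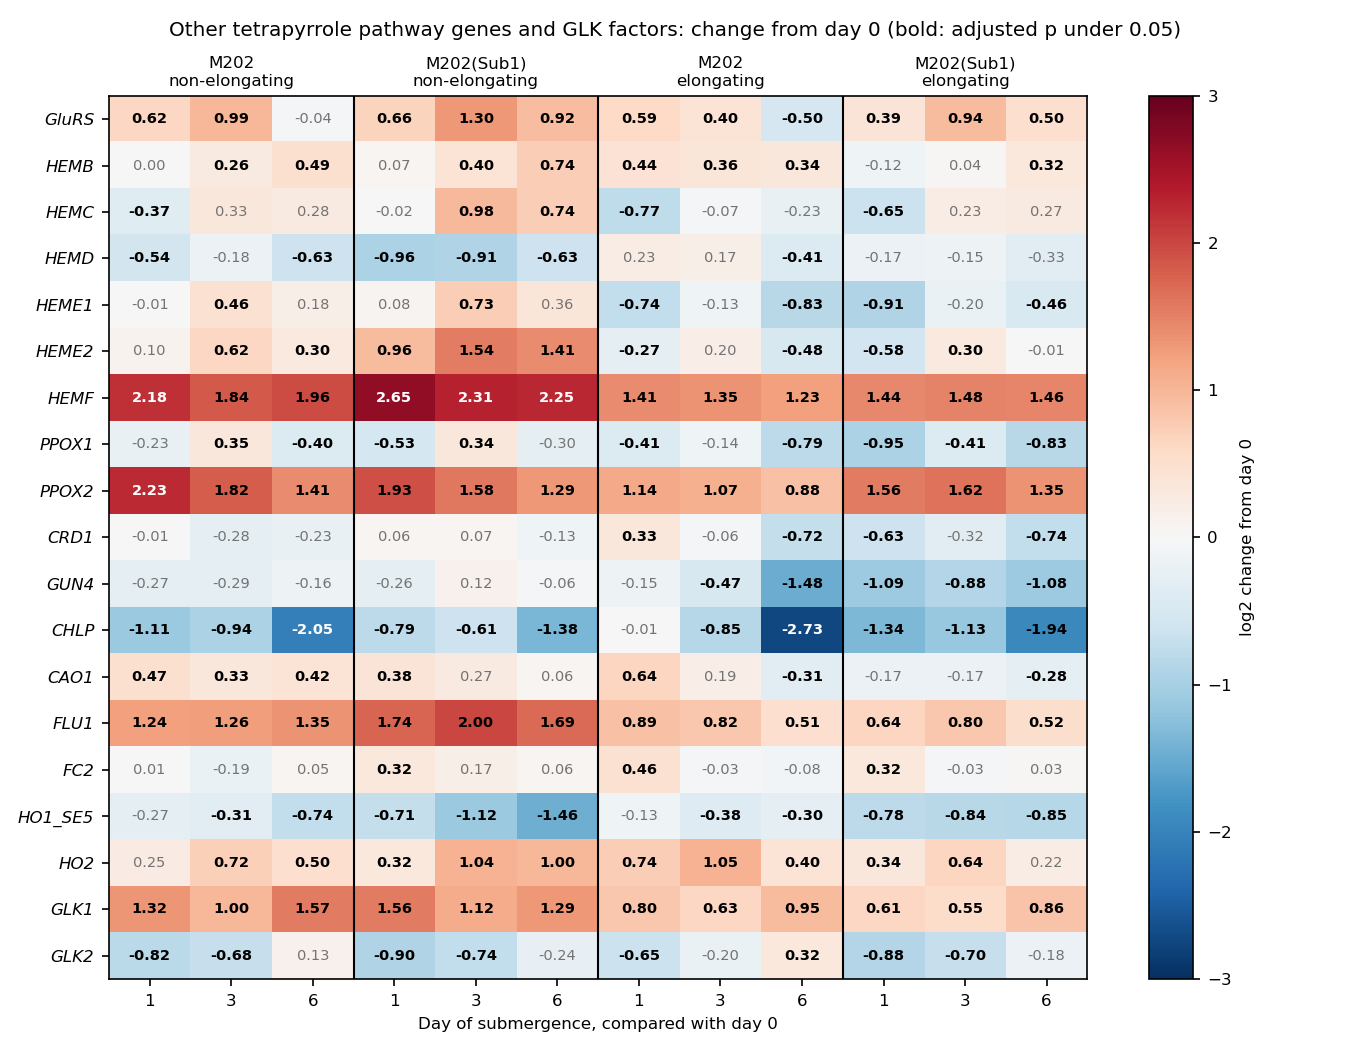
Change from day 0 in log2 units for 17 other tetrapyrrole pathway genes and the factors GLK1 and GLK2, drawn as for the chlorophyll synthesis genes, with bold for an adjusted p under 0.05. HEMF, PPOX2, FLU1 and GLK1 are above 0 in all 12 columns, and CHLP is below 0 in all 12, reaching -2.73 on day 6 in M202 elongating leaves.

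The profiles of the 10 genes over the 16 group means were compared as a description. Among 45 pairs the Pearson correlation of log2 CPM ran from 0.25 (HEMA and DVR) to 0.96 (GSA and CHLD), with a median of 0.70, and 39 pairs were at 0.5 or above. These points share libraries and the leaf type difference, so no p is given. The range from lowest to highest group mean was widest for CHLM, 18.6-fold, from 2.15 CPM in M202 non-elongating leaves on day 6 to 40.0 CPM in M202(Sub1) elongating leaves on day 0, and for PORA, 12.3-fold. CHLG had the narrowest, 3.72-fold. The gene whose profile was most like the mean of the 10 was OS05G0291700 (r = 0.99), and that most like PORA was OS04G0457000 (r = 0.95), neither of which the files name.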

How the data were processed

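Paired-end RNA-seq of leaves was deposited as 1 table of raw read counts per gene, in 48 columns matched to libraries by their labels; even values made up 62.3% to 73.8% of the counts above 0, and dividing the counts by 2 was tried as an alternative. Per the submitters' processing notes, STAR, featureCounts and DESeq2 were used with the build IRGSP-1.0; versions, strand and the handling of multiply mapped reads are not given in the sources used here. From the deposited counts, genes with low counts were removed (filterByExpr, minimum count 10, minimum total 15), libraries were scaled by TMM, and 1 model of the 16 group means was fitted with edgeR 4.0.16 in R 4.3.3 (quasi-likelihood F test, two-sided, 32 residual degrees of freedom, Benjamini-Hochberg threshold 0.05). Standard errors come from the fitted model, and CPM use TMM-scaled totals. The biological coefficient of variation was 0.152. Log2 CPM for correlations used a prior count of 2. Alternatives were RLE and upper-quartile factors, no filter, DESeq2 1.42.0, a fit of the compared groups alone, a replicate block and leaving out each library. Same-numbered libraries were taken as pairs only for the lines' non-elongating leaves on day 0, where all 3 pairs deviated together (correlations 0.101 to 0.137); no label says what the number stands for. The tests were tried on simulated data first. Figures were drawn with matplotlib.

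The 10 genes, the other lists and the tests were chosen with earlier results of these data known, so no list is independent evidence. All 10 genes are named. Of other pathway genes at most 4 per direction and comparison were named by smallest adjusted p. Beside them stand the genes called alike in all or nearly all comparisons with day 0, chosen after their values were seen. CHLP and PPOX1 were likewise added for the size of their line difference on day 1. Gene names were set against a RefSeq table of another assembly (ASM3414082v1): for 9 of 10 genes the symbol lay on the identifier's chromosome and in the same order, and CHLM was outside the table, as were 10 of the 18 other pathway genes. One further gene, FC1, was left out because its symbol lay on another chromosome. Genes with close paralogues may share reads. Sequences and transcript lengths were not used here.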

Additional observations from a re-analysis of the deposited data

Results flagged for a closer look

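Each value here passed the test of a difference between responses (edgeR interaction contrast, Benjamini-Hochberg adjusted over all genes) and is in log2 units. The day 1 response of elongating leaves was lower in M202(Sub1) than in M202 for PORA (-1.75), DVR (-1.29), CHLM (-1.18), HEMA (-1.06), CHLH (-0.87), GSA (-0.83), CHLG (-0.73) and CHLD (-0.70), and on day 6 for HEMA (-0.84). In non-elongating leaves the response was higher in M202(Sub1) for CHLD (0.67) and PORB (0.77) on day 3 and for GSA (0.64) and CHLM (1.61) on day 6. Without 1 library in turn the calls of DVR and CHLM on day 1, of HEMA on day 6 in elongating leaves, and of CHLD on day 3 and GSA and CHLM on day 6 in non-elongating leaves were each lost more than once, with adjusted p up to 0.125, 0.0743, 0.139, 0.083, 0.189 and 0.0694. HEMA lost it without replicates 1 or 3 of M202 on days 0 or 6. It also did so without replicates 2 or 3 of M202(Sub1) on day 0 or 1 or 2 on day 6. With the compared groups fitted alone, GSA and CHLM lost their day 6 calls in non-elongating leaves (adjusted p = 0.206 and 0.0871).

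The responses of elongating and non-elongating leaves of M202 differed for CHLG on day 1 (1.03) and day 3 (0.75), for CHLH on day 3 (-0.54), and on day 6 for CHLI (-1.57), PORA (-1.56), CHLH (-1.22), HEMA (-1.04) and CHLD (-0.80). In M202(Sub1) they differed on day 1 for CHLI (-1.53), CHLH (-1.50) and PORB (-0.70), on day 3 for PORA (-1.51), CHLM (-1.37), CHLI (-1.20), CHLH (-1.18), CHLD (-0.93) and PORB (-0.71), and on day 6 for PORA (-1.81), CHLM (-1.59), CHLH (-1.26), HEMA (-1.17), CHLI (-1.11), CHLD (-0.97), PORB (-0.74) and GSA (-0.71). The CHLH call in M202 on day 3 was lost without any of 6 of its 12 libraries (adjusted p up to 0.119).

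The line difference changed from day 1 to day 6, in a test added after both days were seen, for PORA (2.62), CHLI (1.31), GSA (1.27), CHLM (1.20), CHLG (1.16) and CHLD (1.04) in elongating leaves. In non-elongating leaves it changed for PORA (1.31), GSA (0.68) and CHLH (-0.63), each of which lost its call without some single library (adjusted p up to 0.0829, 0.115 and 0.093).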

How the results depend on the processing

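No value of the 10 genes that was called turned its direction under any alternative. Of 500 gene-by-comparison values, RLE factors lost 3 calls and gained 2, upper-quartile factors lost 3 and gained 4, no filter lost 6 and gained 11, DESeq2 lost 1 and gained 16, counts divided by 2 lost 2 and gained 6, and groups compared alone lost 21 and gained 21. The 2 rises in elongating leaves of M202(Sub1) became 1 under RLE factors, no filter and groups compared alone; the 2 lower line differences in non-elongating leaves became 1, and the 1 lower change of the line difference from day 1 to day 6 became 0, with groups compared alone. The causes were not tested. The rise of PORA in elongating leaves of M202 on day 1 was lost with DESeq2 (adjusted p = 0.0536), and that of HEMA with upper-quartile factors (0.0595). PORA before submergence in non-elongating leaves was called between the lines with upper-quartile factors (0.0432), no filter (0.00113) and counts divided by 2 (0.0448).

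Same-numbered libraries did not deviate together in most comparisons (correlations -0.133 to 0.117 between leaf types, -0.062 to 0.157 between lines, -0.109 to 0.084 between days). The exception was the line comparison of non-elongating leaves on day 0, where all 3 pairs correlated at 0.101 to 0.137. A fit of those 2 groups alone with the replicate block, added after this was seen, called 763 of 17749 genes against 386 without it, and none of the 10 genes (PORA -0.75, adjusted p = 0.113). Elsewhere the numbers were not taken as pairs. Over all libraries the replicate block lost no call and gained 1, PORB in non-elongating leaves on day 6 (difference between the lines' responses 0.54, adjusted p = 0.0449).

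Leaving out each library in turn kept 195 of 247 calls in every case. Counts then ranged as follows. Higher than day 0 were 4 to 8 (M202) and 3 to 6 (M202(Sub1)) in non-elongating and 3 to 7 and 1 to 2 in elongating leaves; lower were 12 to 14, 6 to 7, 18 to 20 and 21 to 23. Line differences were 4 to 6 higher and 2 to 3 lower in non-elongating and 5 to 8 higher and 8 to 8 lower in elongating leaves. Leaf type differences were 33 to 34 higher in M202 and 31 to 32 in M202(Sub1), and 0 lower in each. Differences between the lines' responses were 2 to 7 higher and 6 to 10 lower, and between the leaf types' responses 2 to 4 and 22 to 28. Steps between submerged days were 9 to 14 higher and 15 to 19 lower, and changes of the line difference from day 1 to day 6 were 6 to 9 higher and 0 to 1 lower. The 7 rises in elongating leaves of M202 became 3 without replicate 1 of day 0 and 4 without replicate 3 of day 0. Genes of low counts, CHLM and DVR, had the widest errors, and levels near 2 CPM limit what can be seen for them.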
